A study of Oryza sativa with 8 samples.

Results

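The response of wild-type rice seedlings to PEG was measured by RNA sequencing in 5 libraries. The treated group (WT_PEG, n = 2) was 14-day-old wild-type seedlings, called NIP in the series, after 3 h in 20% polyethylene glycol (PEG) 8000. The untreated group (WT_control, n = 3) was wild-type seedlings of the same age without PEG. Culture of both groups was 7 days on plates followed by 7 days in liquid. The daily cycle was 10 h of light (30 °C) and 14 h of dark (28 °C). The series also holds an SDG708 RNAi line under the same PEG treatment (708RNAi_PEG, n = 3), which entered the model only to estimate the spread between libraries. PEG of this size does not enter cells and lowers the water potential of the medium, so that the roots lose water. The members are the 20568 of 34119 loci that reached 1 FPKM in 2 or more of the 5 wild-type libraries. FPKM is a fragment count per length of gene, scaled by a factor for each library. In the deposited values this factor does not follow total reads. At the edge of this filter, the second highest of the 5 values was 1.0002 FPKM at LOC_Os06g10870, just inside, and 0.99995 FPKM at LOC_Os09g17810, just outside. Of the 13551 loci not tested, 12501 were above 0 in at least 1 wild-type library.

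Plants that lose water make the hormone abscisic acid (ABA). ABA receptors then inhibit clade A protein phosphatases (PP2C), which frees SnRK2 kinases to activate bZIP transcription factors, and these switch on genes for protective proteins such as late embryogenesis abundant (LEA) proteins and dehydrins. The phosphatases and the ABA-degrading enzymes are themselves ABA-responsive and act as brakes. Water deficit also slows growth, which in young tissue depends on cell division, wall loosening and the hormones that control both.

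The libraries held 36370404 and 34392121 reads under PEG, against 34195970 to 37261746 reads without PEG, as recovered from the steps in the FPKM values. The PEG libraries differed from each other by a median of 0.07 on the log2(FPKM + 1) scale. Among untreated libraries, replicates 1 and 2 differed by 0.05, and replicate 3 differed from them by 0.11 and 0.11. A PEG library and an untreated library differed by 0.41 to 0.43. Whether replicates are separate plants is not stated by the labels, and the p-values therefore measure only the spread between these libraries. Leaf and root transcripts were both present. The 4 named light-harvesting genes summed to 13780 and 15330 FPKM under PEG, against 18630 to 22850 FPKM without PEG. Of 3 listed root markers, the 2 with a matched name, the silicon transporters LSI1 and LSI2, summed to 10.3 ± 0.42 FPKM under PEG (SD, n = 2), against 101 ± 5.8 FPKM without PEG (SD, n = 3). Neither was at 0 in any library. In bulk tissue, fewer cells of a type and less RNA per cell cannot be told apart. The meristem markers OSH1 and OSH15 summed to 2.50 and 2.71 FPKM under PEG, against 2.52 to 2.67 FPKM without PEG. The 3 matched seed markers summed to 6.25 and 7.90 FPKM under PEG, against 1.24 to 1.35 FPKM, with GLUB4, a seed storage protein gene, at 0 in all of these libraries. Of the 2 tested, 1 rose, the oil body gene OLE18, and the other did not pass. The higher sum therefore follows OLE18 and is not read as a rise of seed transcripts in general.

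PEG moved a large share of the transcriptome. A locus is called here when limma's adjusted p is under 0.05 and the fold change in FPKM + 1 is 2 or more. By this rule 2185 loci rose (10.6% of those tested) and 1677 fell (8.15%). The balance depended on the scaling: with libraries scaled to total reads 1902 rose and 2121 fell, with quantile normalization 1982 rose and 2032 fell, and with a pseudocount of 0.1 the counts were 2701 and 2693. With no threshold of size, 15594 loci passed the test (75.8%), 7897 of them higher (38.4%) and 7697 lower (37.4%). The libraries of the groups did not overlap at 17011 loci (82.7%), with PEG higher at 42.1% and lower at 40.6% of tested loci. The 5th, 25th, 50th, 75th and 95th percentiles of the log2 fold change over tested loci were -1.23, -0.41, 0.01, 0.39 and 1.65. On this scale the long end of the distribution was on the side of increases. At least 4-fold, 720 loci rose and 222 fell, and at least 8-fold 285 rose and 39 fell. At least 32-fold, 48 rose and 1 fell. With 1 added to FPKM, a fall is limited by the untreated level, while a rise has no such limit. Among loci with an untreated mean under 1 FPKM, 455 that rose had fewer than 2 untreated libraries at 1 FPKM or more. Those loci passed the filter only with the help of the PEG libraries. The skew in sizes is therefore not read as a trait of the response.

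**Figure D1:**
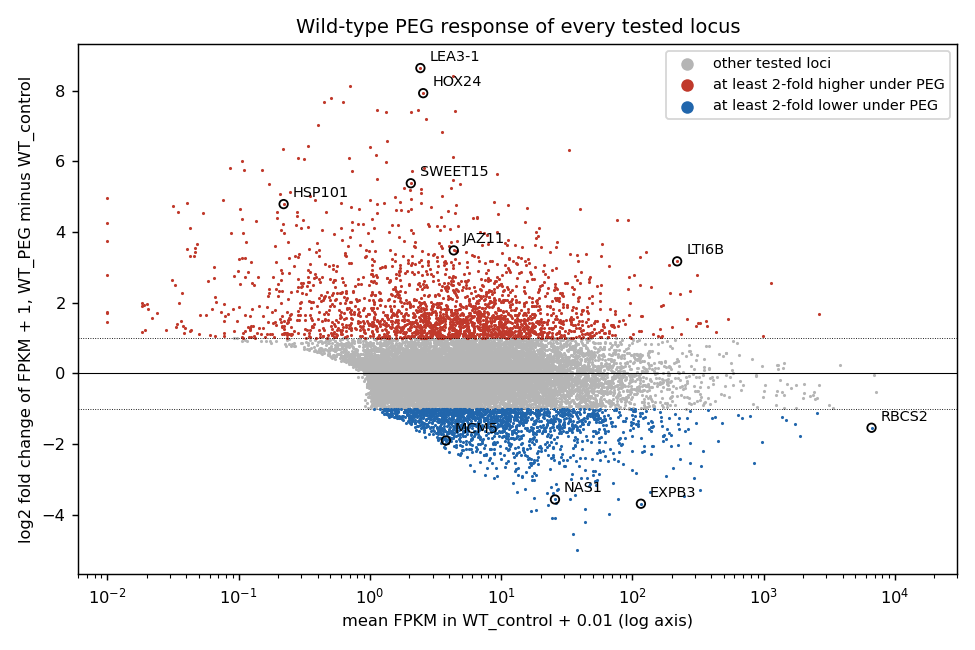
Each point is 1 tested locus, with its mean FPKM in WT_control plus 0.01 on a log x axis and its log2 fold change of FPKM + 1, WT_PEG minus WT_control, on the y axis. Red points are the 2185 loci at least 2-fold higher, blue points the 1677 at least 2-fold lower, and dotted lines mark 2-fold. The increases reach a log2 fold change of 8.64 (LEA3-1), and the slanting empty corner at low FPKM comes from the filter and the added 1.

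The loci that rose took 25.2% and 25.5% of all recovered reads under PEG, against 6.58% to 6.76% without PEG. The loci that fell took 3.91% and 3.99% under PEG, against 12.7% to 13.2% without PEG. These shares use the values that chose the loci and are given as a description of size. The 20 loci with most reads in a library held 8.32% and 8.74% of its reads under PEG, against 10.8% to 11.4% without PEG. The largest gains in FPKM were at LOC_Os11g06720, with 8407 and 8640 FPKM under PEG against 2457 to 2945 FPKM, and at LOC_Os01g15270, with 6119 and 7119 FPKM against 1017 to 1368 FPKM. LOC_Os03g60580 had 2630 and 2720 FPKM under PEG, against 30.4 to 35.1 FPKM without. The largest loss was at RBCS2, a gene of the small subunit of Rubisco, with 2223 and 2341 FPKM under PEG against 6250 to 7289 FPKM without PEG.

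Protective proteins of the LEA and dehydrin families led the increases. All 9 tested members of that list rose, with a median log2 fold change of 6.41, beside 0.01 over all tested loci. LEA3-1 had 1314 and 1362 FPKM under PEG, against 1.60, 3.13 and 2.51 FPKM without PEG (log2 fold change 8.64 ± 0.15 SE, adjusted p = 1.25e-10, limma). The dehydrin gene RAB16A had 1784 and 1768 FPKM under PEG, against 3.68, 5.69 and 3.54 FPKM. In both genes every PEG library stood far above every untreated one. RAB16B and LEA3-2 were under 1 FPKM in each untreated library and averaged 473 ± 24.4 and 331 ± 14.9 FPKM under PEG (SD, n = 2). RAB16 genes are similar copies, and how the authors counted reads that fit several copies is not stated, so the split among them is uncertain. The membrane peptide gene LTI6B had 2007 and 1946 FPKM under PEG, against 213 to 232 FPKM without PEG, and the salt-induced lectin gene SALT had 1119 and 1071 FPKM, against 228 to 235 FPKM.

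Genes for ABA synthesis, breakdown and signalling differed by role. Of 2 matched synthesis genes 1 rose, and ZEP1, zeaxanthin epoxidase, passed in the higher direction under 2-fold (0.46). NCED3, a key enzyme of ABA synthesis, had 26.0 ± 0.83 FPKM under PEG (SD, n = 2), against 1.94 ± 0.20 FPKM without PEG (SD, n = 3; log2 fold change 3.20 ± 0.06). Of 3 ABA 8'-hydroxylases, which break ABA down, ABA8ox2 rose 7.03-fold and ABA8ox1 3.56-fold in mean FPKM, and ABA8ox3 passed the test under 2-fold. Among clade A PP2C genes 8 of 9 rose, with a median log2 fold change of 3.19. PP2C51 had 21.4 and 23.6 FPKM under PEG, against 0.260 to 0.270 FPKM, and PP2C30 had 146 and 156 FPKM, against 4.28 to 4.81 FPKM. Of 10 SnRK2 genes 3 rose, 4 passed in the higher and 2 in the lower direction under 2-fold, and 1 did not pass. Over all tested loci 10.6% rose, and 38.4% passed in the higher and 37.4% in the lower direction at any size. The largest increase was in SAPK6 with 17.2 and 16.7 FPKM under PEG against 4.05 to 4.30 FPKM. SAPK3, at a log2 fold change of 1.04, was under 2-fold with other library scalings (0.83 to 0.98). The bZIP activator gene bZIP23 had 59.3 and 61.6 FPKM under PEG, against 7.34 to 7.89 FPKM. The 1 matched receptor gene, PYL11, had 15.7 and 16.8 FPKM under PEG, against 21.0 to 23.4 FPKM, and passed the test under 2-fold.

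Of 9 HD-Zip I homeobox genes, which encode transcription factors, 3 rose and 1 fell, beside 10.6% and 8.15% of all tested loci. HOX24 had 831 and 882 FPKM under PEG, against 2.12, 3.04 and 2.45 FPKM without PEG (log2 fold change 7.93 ± 0.10, adjusted p = 2.04e-11, limma). HOX22 had 348 and 372 FPKM under PEG, against 24.9 to 29.7 FPKM. These were the highest 2 values of the family under PEG, ahead of HOX16, which was already at 206 to 228 FPKM without PEG and had 259 and 273 FPKM with it. HOX21 fell, with 3.13 and 3.46 FPKM under PEG against 11.7 to 12.7 FPKM. Of 6 NAC genes 4 rose, and NAC4 had 33.4 and 32.6 FPKM under PEG against 2.56 to 3.09 FPKM. NAC5, at a log2 fold change of 1.04, was under 2-fold with other library scalings (0.78 to 0.98). Of 5 tested DREB genes 2 rose. DREB1C averaged 19.3 ± 1.8 FPKM under PEG (SD, n = 2), against 0.671 ± 0.042 FPKM (SD, n = 3), and DREB1A and DREB1B did not pass the test, with 3.59 and 4.95 FPKM for DREB1A under PEG against 3.32 to 4.51 FPKM. Of 5 WRKY genes 3 rose, led by WRKY71, a regulator of ABA and gibberellin responses, with 47.6 and 48.0 FPKM under PEG against 10.3 to 11.1 FPKM.

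All 8 heat shock protein genes with a matched name rose under PEG, and so did some heat shock factor genes. Heat shock factors activate genes for chaperones, which keep proteins folded or pull aggregates apart. Of 19 heat shock factor genes 9 rose, 7 more passed in the higher direction under 2-fold and 3 did not pass, with a median log2 fold change of 0.91. Over all tested loci 10.6% rose, and 38.4% passed in the higher direction at any size. HSFA2A had 10.8 and 11.4 FPKM under PEG, against 0.0400, 0.0541 and 0.0153 FPKM without PEG, which is close to no expression. HSFC2B averaged 37.5 ± 0.75 FPKM under PEG (SD, n = 2), against 2.16 ± 0.28 FPKM (SD, n = 3). By class, 3 of 11 class A, 3 of 4 class B and 3 of 4 class C factors rose. The 8 matched heat shock protein genes of the chaperone list had a median log2 fold change of 3.28. HSP101, the disaggregating chaperone, had 32.2 and 32.7 FPKM under PEG, against 0.162, 0.211 and 0.256 FPKM (log2 fold change 4.79 ± 0.05, adjusted p = 1.27e-11, limma). The small heat shock protein gene HSP17.9A had 288 and 309 FPKM under PEG, against 17.3 to 21.9 FPKM. The 3 matched genes for folding in the endoplasmic reticulum were not called. BIP1, a chaperone there, had 53.5 and 51.8 FPKM under PEG, against 89.3 to 90.3 FPKM. It passed the test in the lower direction under 2-fold, reaching -1.08 with quantile normalization. The smallest increases that were called, HSFA9 and HSP23.2, both at a log2 fold change of 1.11, dropped to 0.99 with libraries scaled to their total reads.

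SWEET genes for sugar transport rose in 5 of 7 tested cases. SWEET proteins carry sugars across membranes and SUT proteins carry sucrose. Of 11 tested genes for sugar transport and sucrose cleavage 6 rose and none was called lower, beside 10.6% and 8.15% of all tested loci. The median log2 fold change of that list was 1.22. SWEET15 had 122 and 129 FPKM under PEG, against 1.75, 1.99 and 2.38 FPKM without PEG (log2 fold change 5.38 ± 0.08, adjusted p = 4.20e-11, limma). SWEET16 had 42.9 and 45.7 FPKM under PEG, against 9.35 to 11.4 FPKM, and SUT1 averaged 27.1 ± 0.67 FPKM (SD, n = 2), against 7.88 ± 0.43 FPKM (SD, n = 3). Proline is a solute that rice cells accumulate under water deficit. P5CS1, the first enzyme of its synthesis from glutamate, averaged 23.6 ± 0.79 FPKM under PEG (SD, n = 2), against 9.26 ± 0.60 FPKM (SD, n = 3), and P5CS2 passed under 2-fold in FPKM + 1 (0.96). In mean FPKM, P5CS2 rose 2.34-fold. It was called higher with a pseudocount of 0.1 (1.2), with voom (1.26) and without untreated replicate 2 (1.01). OAT, ornithine aminotransferase, had 9.40 and 8.74 FPKM under PEG, against 2.33 to 2.50 FPKM. Of 3 tested genes for trehalose and betaine synthesis 1 rose, TPP2, a trehalose phosphate phosphatase, and the betaine aldehyde dehydrogenases BADH1 (0.38) and BADH2 (-0.24) passed under 2-fold.

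**Figure D2:**
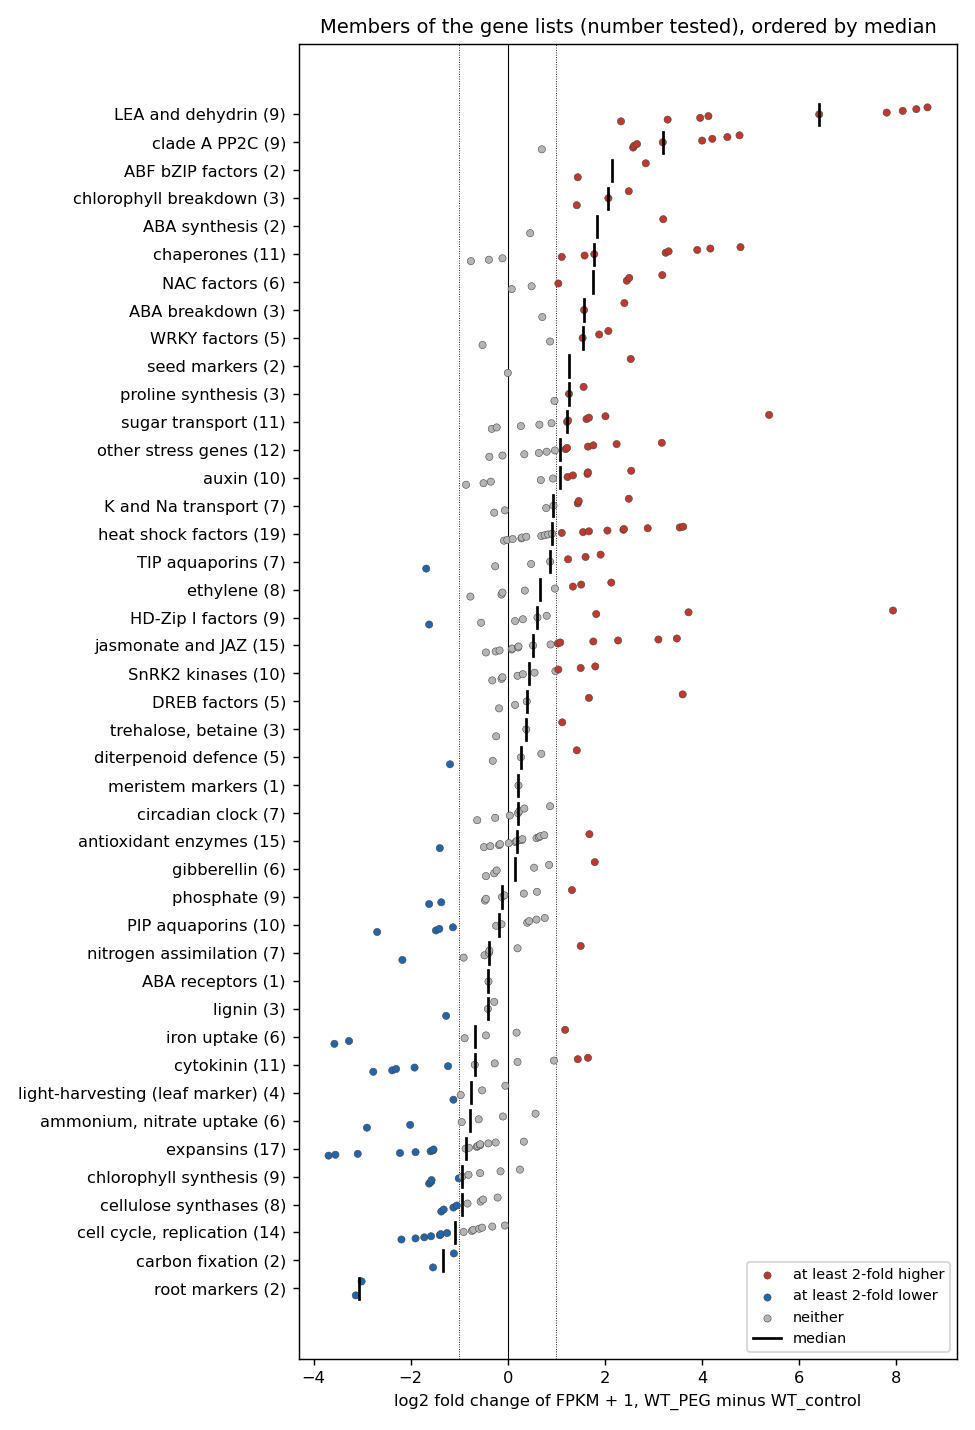
Each point is the log2 fold change of FPKM + 1, WT_PEG minus WT_control, of 1 tested member of the gene list named on the y axis, with the number tested in parentheses, the median as a black bar and 2-fold as dotted lines. All lists are drawn, ordered by their medians, with LEA and dehydrin genes at 6.41 at the top and the 2 root markers at -3.07 at the bottom.

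Chlorophyll genes split by direction. Of 7 genes for enzymes of chlorophyll synthesis 4 fell and the other 3 passed in the lower direction under 2-fold. Over all tested loci 8.15% fell and 10.6% rose, and 37.4% passed in the lower direction at any size. The protochlorophyllide reductase gene PORA had 77.5 and 85.7 FPKM under PEG, against 238 to 276 FPKM without PEG (log2 fold change -1.62 ± 0.08, adjusted p = 7.27e-08, limma). CHLI, a subunit of magnesium chelatase, had 18.9 and 20.7 FPKM under PEG, against 59.9 to 62.3 FPKM. The fall of CHLH, at -1.01, was under 2-fold without untreated replicate 1 (-0.97), untreated replicate 2 (-0.96) or PEG replicate 2 (-0.97). All 3 matched genes for chlorophyll breakdown rose. SGR, which starts the breakdown by removing magnesium, had 56.9 and 60.2 FPKM under PEG, against 9.55 to 9.76 FPKM. NYC1, a chlorophyll b reductase, had 59.4 and 55.6 FPKM under PEG, against 12.4 to 13.3 FPKM. The regulators of chloroplast development GLK1 and GLK2 were not called, with log2 fold changes of -0.15 and 0.25. Of the light-harvesting genes, LHCB4 fell, with 1107 and 1244 FPKM under PEG against 2401 to 2859 FPKM, and LHCB2, at -0.97, passed 2-fold without untreated replicate 2 or without PEG replicate 2 (-1.01).

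Genes for DNA replication and the cell cycle were lower. Of 14 tested members 7 fell and none was called higher, beside 8.15% and 10.6% of all tested loci. The median log2 fold change of the members was -1.08. PCNA, the sliding clamp of DNA polymerase, had 3.70 and 3.62 FPKM under PEG, against 20.2, 19.8 and 20.7 FPKM without PEG (log2 fold change -2.19 ± 0.05, adjusted p = 5.16e-10, limma). All 5 tested MCM genes, subunits of the helicase that opens DNA for replication, fell to between 0.0692 and 0.167 of their untreated mean FPKM. MCM5 had 0.332 and 0.223 FPKM under PEG, against 3.72 to 3.87 FPKM. No library of one group reached the other group in any of these genes, which also held at 82.7% of all tested loci. Of 5 B-type cyclin and CDKB kinase genes all passed in the lower direction and CDKB2-1 reached 2-fold, at 4.11 ± 0.10 FPKM under PEG (SD, n = 2) against 11.2 ± 0.67 FPKM (SD, n = 3; named after its value was seen). CYCB2-2, at -0.91, reached 2-fold with a pseudocount of 0.1 (-1.34), with voom (-1.38) and with total reads (-1.01). The cell cycle inhibitor KRP1 did not pass the test, with 21.2 and 22.8 FPKM under PEG against 21.5 to 25.2 FPKM. With a filter at 5 FPKM 2 members of the list were called, and the MCM genes, all under 5 FPKM, were not tested.

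The wall genes that were called fell. Expansins loosen the wall of growing cells. Of 17 tested expansin genes 8 fell, beside 8.15% of all tested loci, and 8 more passed in the lower direction under 2-fold. EXPA5 passed in the higher direction under 2-fold (0.33). EXPB5 (-0.87), named after its value was seen, was called lower with a pseudocount of 0.1 (-1.71) and with voom (-1.88). By family, 5 of 7 beta-expansins and 3 of 10 alpha-expansins fell. EXPB3 had 7.99 and 8.15 FPKM under PEG, against 114, 114 and 120 FPKM without PEG (log2 fold change -3.69 ± 0.05, adjusted p = 2.40e-11, limma). EXPA4 had 5.24 and 6.32 FPKM under PEG, against 74.9 to 83.5 FPKM, and EXPA2 had 6.81 and 8.11 FPKM, against 69.1 to 73.4 FPKM. Expansins form a family of similar copies, so the split of reads among neighbours in it is uncertain. Cellulose synthases of the primary wall fell in 4 of 5 cases, and those of the secondary wall in 0 of 3, all of which passed the test in the lower direction under 2-fold. CESA1 had 22.6 and 20.9 FPKM under PEG, against 51.5 to 61.4 FPKM. CESA8, at -1.05, was under 2-fold without PEG replicate 2 (-0.99). COMT1, a methyltransferase of lignin synthesis, had 172 and 162 FPKM under PEG, against 393 to 422 FPKM.

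Hormone genes moved in distinct ways. Type-A response regulators are quickly induced by cytokinin and dampen its signal. Of 6 tested type-A genes 4 fell and the other 2 passed in the lower direction under 2-fold. Over all tested loci 8.15% fell and 10.6% rose, and 37.4% passed in the lower direction at any size. RR10 had 0.998 and 1.02 FPKM under PEG, against 12.7, 12.4 and 12.9 FPKM without PEG (log2 fold change -2.77 ± 0.09, adjusted p = 3.37e-09, limma), and RR2 had 4.86 and 4.46 FPKM, against 27.6 to 29.4 FPKM. RR9 and RR10 are similar copies, so their values may share reads. Of 5 cytokinin oxidases, which degrade the hormone, CKX11 and CKX4 rose and CKX3 fell, all 3 named after their values were seen. CKX11 had 74.2 and 79.5 FPKM under PEG, against 22.8 to 25.1 FPKM.

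JAZ proteins repress jasmonate responses and are themselves jasmonate-induced. Of 10 JAZ genes 6 rose, beside 10.6% of all tested loci. JAZ11 had 57.8 and 58.7 FPKM under PEG, against 3.94 to 4.96 FPKM without PEG (log2 fold change 3.48 ± 0.08, adjusted p = 5.81e-10, limma). JAZ12 had 86.5 and 88.9 FPKM under PEG, against 8.74 to 10.5 FPKM. Of the 5 genes for jasmonate synthesis and conjugation, 1 passed in the higher and 2 in the lower direction under 2-fold, 2 did not pass, and the median log2 fold change was 0.08. JAZ6 (1.08) and JAZ8 (1.03) were under 2-fold with other library scalings, at 0.84 to 0.94 and 0.91 to 0.98, and JAZ8 also without untreated replicate 1 (0.99) or PEG replicate 2 (0.99). Among auxin genes, 3 of 4 AUX/IAA repressors and 2 of 3 GH3 enzymes, which conjugate auxin to amino acids, rose. IAA9 had 18.3 and 18.1 FPKM under PEG, against 2.19 to 2.43 FPKM. The 3 tested PIN auxin carriers all passed in the lower direction under 2-fold. PIN2 (-0.86), named after its value was seen, was called lower with a pseudocount of 0.1 (-1.42) and with voom (-1.5). Of 4 ethylene synthesis genes 3 rose. The gene ACS2 had 6.47 and 6.01 FPKM under PEG, against 0.640 to 0.680 FPKM, and ACO1, the last enzyme, had 90.5 and 91.6 FPKM, against 30.9 to 32.6 FPKM. ACS5, named after its value was seen, went the other way, with 0.474 and 0.372 FPKM under PEG against 1.39 to 1.49 FPKM. Its log2 fold change was -0.77, and it was called lower with a pseudocount of 0.1 (-1.56) and with voom (-1.72). None of the 3 ethylene receptors was called. Of 6 tested gibberellin genes 1 rose, beside 10.6% of all tested loci, 2 passed in the higher and 3 in the lower direction under 2-fold, and the median was 0.16. That 1 gene, the gibberellin receptor GID1, had 96.5 and 98.2 FPKM under PEG, against 26.9 to 28.2 FPKM.

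**Figure D3:**
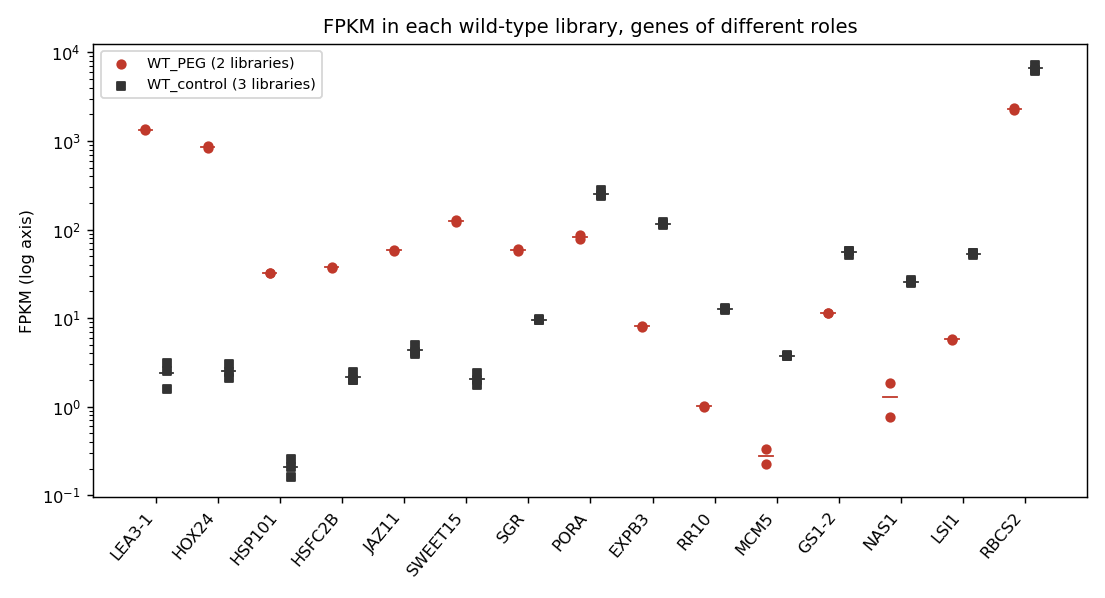
FPKM on a log axis in each wild-type library for genes of different roles, with the 2 WT_PEG libraries as red circles left of the 3 WT_control libraries as dark squares and short lines for the means. The groups are apart in every gene shown, as they are at 82.7% of all tested loci. Examples are LEA3-1 (1314 and 1362 under PEG, against 1.60 to 3.13) and RBCS2 (2223 and 2341 under PEG, against 6250 to 7289).

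Some genes for water and ion transport were called, in both directions. Aquaporins are water channels of the plasma membrane (PIP) or the vacuole membrane (TIP). Of 10 tested PIP genes 4 fell and none was called higher, beside 8.15% and 10.6% of all tested loci. PIP2-7 had 29.0 and 32.3 FPKM under PEG, against 189, 192 and 229 FPKM without PEG (log2 fold change -2.69 ± 0.09, adjusted p = 7.38e-09, limma). The one with the highest FPKM, PIP1-2, had 791 and 754 FPKM under PEG, against 500 to 521 FPKM, and passed in the higher direction under 2-fold. Of 7 TIP genes 3 rose and TIP2-1 fell, and 1 lower gene of 7 says little about the family. TIP1-2 had 614 and 644 FPKM under PEG, against 160 to 175 FPKM, and TIP2-1 had 60.4 and 57.5 FPKM, against 188 to 194 FPKM. Of 7 tested potassium and sodium transport genes 3 rose, beside 10.6% of all tested loci. HKT1;1, a sodium transporter, had 29.1 and 27.4 FPKM under PEG, against 3.92 to 4.50 FPKM. AKT1, a potassium channel, had 13.2 and 12.2 FPKM under PEG, against 3.89 to 4.18 FPKM.

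Some genes for nutrient uptake fell, and the 2 root markers fell beside them. Of tested members, 2 of 6 for ammonium and nitrate transport fell and none rose, 2 of 6 for iron fell and 1 rose, and 2 of 9 for phosphate fell and 1 rose. Beside 8.15% and 10.6% of all tested loci, counts this small say little about the lists, and the values below are of single genes. LSI1 had 5.67 and 5.86 FPKM under PEG, against 54.3, 54.9 and 51.5 FPKM without PEG (log2 fold change -3.01 ± 0.05). LSI2 had 4.36 and 4.76 FPKM under PEG, against 43.6 to 51.6 FPKM (log2 fold change -3.13 ± 0.07). The ammonium transporter gene AMT1-3 averaged 1.08 ± 0.28 FPKM under PEG (SD, n = 2), against 14.5 ± 1.7 FPKM (SD, n = 3). NAS1 and NAS2, nicotianamine synthases for iron transport, had 1.84 and 0.769 FPKM and 2.04 and 1.76 FPKM under PEG, against 24.9 to 26.6 FPKM and 25.3 to 29.7 FPKM. Both are similar copies that may share reads. NAR2.1, the partner protein of nitrate transporters, had 0.531 and 0.624 FPKM under PEG, against 4.96 to 5.95 FPKM, and GS1-2, a cytosolic glutamine synthetase, had 11.5 and 11.5 FPKM, against 51.1 to 57.5 FPKM. The phosphate transporter gene PT8 did not pass, with 37.8 ± 0.20 FPKM under PEG (SD, n = 2) against 39.8 ± 1.2 FPKM (SD, n = 3). AMT1-1 passed in the lower direction under 2-fold, with 28.8 and 28.4 FPKM under PEG against 43.6 to 43.8 FPKM. The share of the amount of root RNA in these changes was not tested. In the other direction, GDH2, a glutamate dehydrogenase, had 23.8 and 21.3 FPKM under PEG, against 6.87 to 7.54 FPKM.

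Of 15 antioxidant genes 1 rose and 1 fell, which is near the 10.6% and 8.15% of all tested loci and is not read as a result about the family. GR2, a glutathione reductase, had 59.7 and 55.1 FPKM under PEG, against 16.7 to 17.6 FPKM. The catalase gene CATA had 182 and 184 FPKM under PEG, against 473 to 508 FPKM. None of 7 clock genes was called by limma in either direction, and 6 passed the test under 2-fold. With 18.8% of all tested loci called, a count of 0 in so short a list says little. GI had 106 and 104 FPKM under PEG, against 54.6 to 58.7 FPKM, at a log2 fold change of 0.87.

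Some loci were near silent in one condition. With a mean under 0.1 FPKM without PEG and at least 1 FPKM under PEG, 81 loci were near silent in the untreated group alone, and 35 showed the reverse. LOC_Os03g04080 had 67.8 and 72.2 FPKM under PEG, against 0.110, 0.106 and 0.0699 FPKM without PEG. LOC_Os06g13910 had 31.2 and 28.8 FPKM under PEG and was listed at 0 in the 3 untreated libraries. Above that limit under PEG, LOC_Os10g05950 had the lowest log2 fold change of all tested loci (adjusted p = 7.98e-12, limma), with 0.178 and 0.234 FPKM under PEG against 36.8 to 38.6 FPKM. LOC_Os02g13660 had 0.535 and 0.572 FPKM under PEG, against 33.1 to 38.2 FPKM. These loci carry no name in the files used and are given by their identifiers.

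The share of loci called differed with gene length. Among 353 listed loci with a matched name, 301 had a recovered length within 10% of the reference gene span. Recovered length is therefore read as gene span, not transcript length. Of loci under 1000 bases of recovered length, 19.8% rose and 13.8% fell, and of loci of 8000 bases or more 3.69% rose and 2.18% fell. Among loci with a mean of 5 to 20 FPKM without PEG, 15.3% rose and 19.8% fell under 1000 bases. In the same range of FPKM, 5.91% rose and 5.22% fell at 4000 to 8000 bases, and 4.21% rose and 5.26% fell at 8000 bases or more. By untreated level, 8.03% rose and 5.72% fell at 1 to 5 FPKM, and 7.97% rose and 19.3% fell at 100 FPKM or more. With 1 added to FPKM, loci of low untreated level have little room to fall, so the shares that fell are not compared between levels. Below 1 FPKM, 44.6% rose, but 944 of these 1028 loci passed the filter only with the help of the PEG libraries, so nothing is read from this share.

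**Figure D4:**
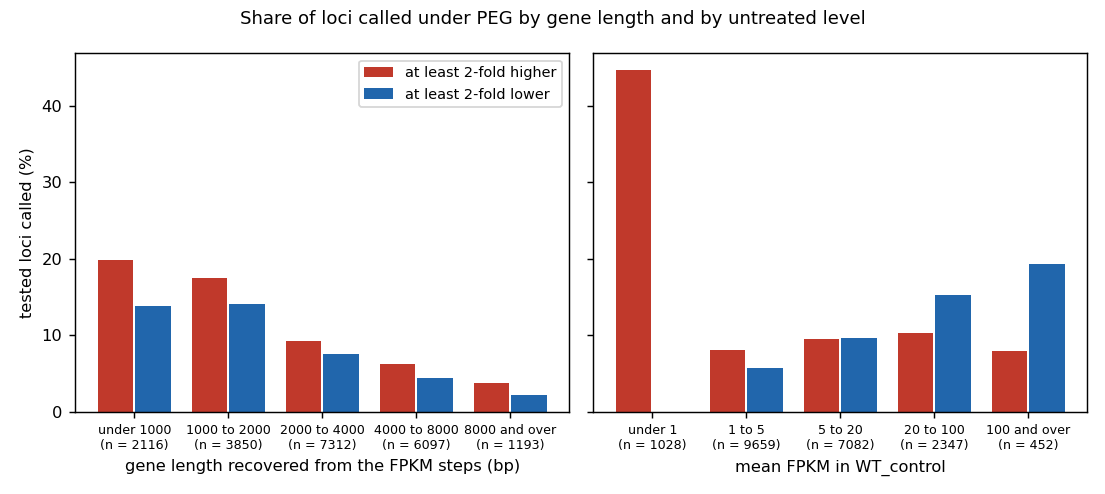
Percent of tested loci at least 2-fold higher (red) or lower (blue) in WT_PEG than in WT_control, in bins of recovered gene length in bases (left) and of mean FPKM in WT_control (right). Shares run from 19.8% and 13.8% in the shortest loci to 3.69% and 2.18% in the longest, and the lowest FPKM bin reflects the filter.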

How the data were processed

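Per locus, the deposited table gives FPKM in each library, group means made by the authors, and for each comparison the log2 fold change and p-value of the authors. The submitters' processing notes name HISAT2, featureCounts and DESeq2 besides FastQC, cutadapt, SAMtools and deepTools, and the labels' protocols describe stranded poly(A) libraries. No source used here gives the genome build, annotation or strand setting of the counting, so antisense genes may share reads. None says whether the authors' p-value is adjusted. Whole reads were recovered from the FPKM steps in 33817 of 33817 rows above 0 (tolerance 0.03 reads), and 302 rows were at 0. Reads were 97.3% and 98.3% of the FPKM denominators under PEG, against 87.0% to 91.3% without, so the deposited values are not scaled to total reads. In the authors' deposited table, 2768 tested loci had a log2 fold change of at least 1 and a p-value under 0.05, and 2846 a change of at most -1, including 2185 of 2185 and 1676 of 1677 loci called here.

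Here log2(FPKM + 1) was fitted with limma 3.58.1 in R 4.3.3, 3 groups and 8 libraries, 5 residual degrees of freedom, with Benjamini-Hochberg adjustment over the 20568 tested loci. A fold change on this scale understates the change of low loci. Simulated data were used to test the script. Members and lists were chosen with earlier results of these data known. Of 507 listed loci, 351 were used, those whose name matched the RefSeq annotation of assembly ASM3414082v1 (used for names only). The others are not reported here. Genes named are up to 4 called members per list with the largest change, any member that did not pass, the 10 highest and 10 lowest loci, the 5 largest gains and losses of FPKM, the 5 highest loci near silent without PEG, and 3 runs of called neighbours. Members that passed the test under 2-fold, such as GI, PIP1-2, HOX16, AMT1-1, BIP1, PYL11 and LHCB2, are outside this rule and were chosen after their values were seen.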

Additional observations from a re-analysis of the deposited data

How the results depend on the processing

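The 2185 loci called higher were 1902 to 2847 under every alternative except the 5 FPKM filter (1835), and the 1677 called lower were 1622 to 2121 with the other scalings, fits and filters that were run apart from a pseudocount of 0.1 (2693), voom on recovered reads (2735) and a filter at 5 FPKM (1116). That filter tested 11500 loci, of which 9454 passed the test at any size, and all 1116 were also called without it. Leaving out each library in turn gave 2145 to 2226 higher, 1608 to 1723 lower and 14085 to 15876 past the test. Leaving out 1 of the PEG libraries assumes that the lone one varies like the other groups. Scaling to total recovered reads moved the median of all loci from 0.01 to -0.10, and changes are to be read relative to it. Under quantile normalization the log2 fold change turned negative for APX8 (-0.05), HOX16 (-0.07), PRR73 (-0.01), SODCC1 (-0.23), JAZ1 (-0.04), TIP2-2 (-0.07), APX2 (-0.08), LHY (-0.05), OPR7 (-0.16) and SODCP (-0.08), and under total reads for SODCC1 (-0.12); the cause was not tested. Of 358 named loci, 309 kept the same call under all alternatives. With the replicate number as a block, 2204 rose, 1622 fell and 15666 passed. Deviations of same-numbered libraries from their group means correlated at 0.25 (number 1) and -0.25 (number 2). The deviations of the 2 PEG libraries mirror each other by construction, so these values cannot tell whether the numbers pair the libraries. The edgeR alternative was not run. With 2 PEG libraries, precision rests mainly on the spread pooled over groups.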

Other observations

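Some of the called loci lay next to each other. Of 2182 loci that rose and have a place in the order of locus identifiers, 698 (32.0%) had a tested neighbour that also rose, and of 1677 that fell, 389 had a tested neighbour that also fell. A single tested locus rose in 10.6% and fell in 8.15% of cases, most loci have a neighbour on either side, and no expected share was computed, so these counts are not read as clustering. Runs of at least 3 such loci numbered 71 among increases and 35 among decreases. The longest run held 6 loci that fell, LOC_Os07g01400 to LOC_Os07g01490. In it LOC_Os07g01410 averaged 2.29 FPKM under PEG, against 15.8 FPKM without PEG. In a run of 5 that rose, LOC_Os01g03320 to LOC_Os01g03390, LOC_Os01g03340 had 1331 and 1453 FPKM under PEG, against 264 to 297 FPKM, and LOC_Os01g03360 had 662 and 747 FPKM, against 94.3 to 115 FPKM. In another, LOC_Os01g43700 to LOC_Os01g43750, LOC_Os01g43740 had 12.4 and 10.4 FPKM under PEG, against 0.234 to 0.319 FPKM, and LOC_Os01g43710 (1.06) was under 2-fold with other scalings (0.84 to 1.00) and without PEG replicate 1 (0.95). Neighbouring copies can share reads, and this was not tested. By chromosome, the share of tested loci that rose ran from 8.70% on chromosome 12 to 11.7% on chromosome 1, and the share that fell from 6.61% on chromosome 12 to 11.4% on chromosome 10.

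Of 5 tested genes on the list of defence and diterpenoid genes 1 rose and 1 fell, beside 10.6% and 8.15% of all tested loci. Counts this small say little about the list. Momilactones are diterpenoid defence compounds. MAS, momilactone A synthase, had 9.06 and 9.64 FPKM under PEG, against 2.70 to 3.07 FPKM without PEG. CYP99A3, a cytochrome P450 of the same cluster, had 2.25 and 2.59 FPKM under PEG, against 6.52 to 7.23 FPKM. Among other stress regulators 6 of 12 tested rose and none was called lower. SAP1, a zinc finger protein gene, had 246 and 259 FPKM under PEG, against 68.9 to 84.2 FPKM. The seed oil body gene OLE18 had 4.91 and 7.00 FPKM under PEG, against 0.126 to 0.228 FPKM.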
